A study of Homo sapiens with 4 samples.

Results

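The integrated stress response is the program by which a cell slows general protein synthesis and switches on a set of rescue genes. Several kinases, each sensing a different stress, phosphorylate the initiation factor eIF2, which lowers translation of most mRNAs but raises that of the transcription factor ATF4. ATF4, usually paired with a C/EBP protein, then induces CHOP (gene symbol DDIT3), ATF3 and genes of amino acid supply, redox balance and growth control. The data described here concern 10 genes of this program, out of 35993 genes in the expression table. These genes were named from general knowledge of the pathway, with earlier results of these data already known. They comprise the transcription factors ATF4, DDIT3 and ATF3, the feedback pseudokinase TRIB3, the glutathione-degrading enzyme CHAC1, the mTORC1 inhibitors DDIT4 and SESN2, the amino acid enzymes ASNS and PSAT1, and the lipoprotein receptor VLDLR. All 10 were matched by symbol, and all 10 reached the minimum for testing, a count of 10 on average per library, as did 16599 genes in all.

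The RNA-Seq was performed on MDA-MB-231, an established triple-negative human breast cancer line with a mesenchymal phenotype. The cells received control siRNA (siControl) or an siRNA against CTGF (siCTGF), and each was left untreated or treated with 50 µM kahweol, a coffee diterpene, for 48 h in serum-free medium. The 4 conditions hold 1 library each, so no condition has a replicate, and the effect of lower CTGF cannot be told apart from other effects of the single siRNA. Kahweol was dissolved in DMSO and no vehicle is named for the untreated cells, so kahweol and DMSO cannot be told apart. VIM was abundant in every library (2082 to 2819 TPM, length-scaled transcript abundance), whereas ESR1 and PGR were at 0.09 TPM or less. ERBB2, the third receptor that defines the subtype, was at 20.1 to 31.5 TPM. The markers of leukocytes, endothelium and fibroblasts (PTPRC, PECAM1, LUM and DCN) did not exceed 0.19 TPM. The luminal keratins KRT8 and KRT18, however, were at 273 to 478 TPM, and the epithelial marker EPCAM at 23.2 to 39.0 TPM. CTGF itself (gene symbol CCN2) was at 159 and 63.6 CPM (TMM-scaled counts relative to library size) in untreated siControl and siCTGF cells, and at 186 and 31.8 CPM with kahweol. Total counts were 44781516 and 47276653 in the kahweol-treated libraries and 59129784 and 51830429 in the untreated ones. The 10 most abundant genes took 10.8% and 12.9% of the counts with kahweol against 8.54% and 8.25% without, and mitochondrial rRNA 4.33% and 6.01% against 3.94% and 3.11%. Their part in the kahweol results was not tested. In bulk RNA, fewer expressing cells and less mRNA per cell cannot be told apart.

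ATF4 and its C/EBP partners bind a composite site whose core reads TGATGNAA, and the promoters of the 10 genes were searched for it on both strands. The sequences, credited to RefSeq (GRCh38.p14), reach from 250 bases before to 50 bases after each gene's start, and all 10 genes matched. The site was found in ASNS, ATF3 and CHAC1, that is in 3 of the 10, against 4.46% of 27305 genes. Sites outside this window, or with another sequence, were not searched, so a gene with no match may still hold one. The promoter of DDIT3 held an AP-1 site (TGANTCA, the site of FOS and JUN proteins), which 9.37% of genes hold. No promoter of the 10 held the ER stress response element in this window. Only 0.0916% of genes hold it there, so its absence from 10 genes says little about them. The stretches around the matches are shown for the 4 genes that held one, whatever their response to kahweol. Each is written from 5′ to 3′ in the direction of transcription and ends before the gene's start, with the match in capitals. In ASNS the match spans bases -68 to -61 from the start, in ATF3 -191 to -184, in CHAC1 -209 to -202 on the opposite strand, and in DDIT3 -241 to -235.
ASNS, minus strand, chr7:97872423-97872522: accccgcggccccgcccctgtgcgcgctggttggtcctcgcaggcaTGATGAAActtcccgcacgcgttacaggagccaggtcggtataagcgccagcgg
ATF3, plus strand, chr1:212565170-212565269: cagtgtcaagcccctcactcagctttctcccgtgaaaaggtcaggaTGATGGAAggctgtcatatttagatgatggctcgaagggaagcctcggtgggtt
CHAC1, plus strand, chr15:40953221-40953315: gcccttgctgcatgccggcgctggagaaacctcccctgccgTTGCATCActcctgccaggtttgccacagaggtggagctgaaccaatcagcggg
DDIT3, minus strand, chr12:57520703-57520764: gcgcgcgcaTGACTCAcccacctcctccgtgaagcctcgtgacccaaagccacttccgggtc

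The levels of the 10 genes, compared per transcript length in TPM, covered a wide range. ATF4 was highest in every library, between 659 and 1067 TPM. In untreated siControl cells, ATF4 was at 664 TPM, and PSAT1 (159 TPM), DDIT4 (112 TPM), ASNS (74.9 TPM), TRIB3 (63.3 TPM) and DDIT3 (38.8 TPM) followed. SESN2, CHAC1, ATF3 and VLDLR lay close together between 7.70 and 8.81 TPM, and without replicates their order cannot be told. In kahweol-treated siControl cells, DDIT3 stood at 132 TPM, above ASNS at 126 TPM, and DDIT4 at 45.9 TPM, below TRIB3 at 54.0 TPM. The 10 genes together took 0.106% and 0.114% of the counts in untreated siControl and siCTGF cells and 0.155% and 0.152% with kahweol.

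**Figure D1:**
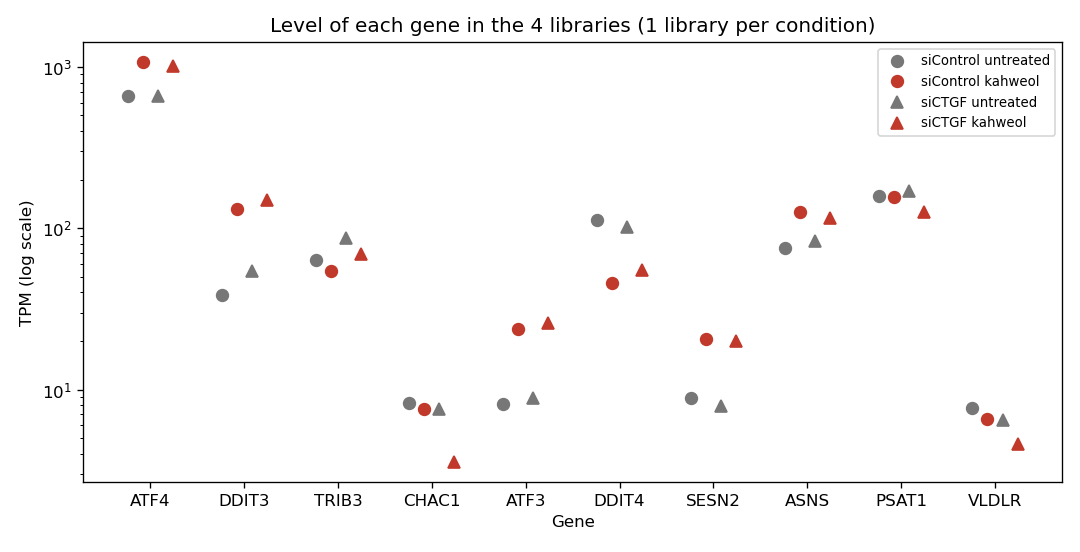
TPM (y axis, log scale) of the 10 genes (x axis) in the 4 libraries, with gray for untreated and red for kahweol-treated cells, circles for siControl and triangles for siCTGF, 1 library per point. Both red points lie above both gray points for ATF4, DDIT3, ATF3, SESN2 and ASNS and below them for DDIT4 and, on this scale, PSAT1. How many of all genes separate in this way was not counted. With kahweol, 3439 of the 16599 genes tested were over a fold of 1.3 in both siRNA backgrounds and 3029 under 0.7. DDIT4 in siControl cells fell from 112 to 45.9 TPM.

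To determine how kahweol affected the program, the kahweol-treated library of each siRNA was set against its untreated counterpart. Kahweol raised DDIT3, ATF3 and SESN2 the most, raised ATF4 and ASNS less, and lowered DDIT4. TRIB3, CHAC1, PSAT1 and VLDLR did not pass the test over the 4 libraries. Of the 10 genes, 5 were over a fold change of 1.3 in siControl cells, where 28.1% of all genes tested were, and 1 was under 0.7, where 26.3% were. In siCTGF cells, 5 were over 1.3 (28.4% of all genes) and 2 under 0.7 (24.2% of all genes). In the fit over all 4 libraries, edgeR's quasi-likelihood test with siRNA as a covariate and Benjamini-Hochberg correction, 5 of the 10 were higher and 1 lower at an adjusted p under 0.05, against 22.9% and 23.6% of the 16599 genes. With scaling by total counts alone, the same numbers of the 10 passed, whereas the calls over all genes went from 3805 higher and 3922 lower to 2880 and 5162. The median log2 fold change of the 10 genes in this fit was 0.44, beside -0.01 over all genes tested. This fit leaves 1 degree of freedom for the residual, and a kahweol response that depends on the siRNA enters it as noise.

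ATF4 (gene ID 468, chromosome 22 from 39916564 to 39918691 in GRCh37), the central activator of the program, was at 496 CPM in untreated siControl, 939 CPM in kahweol-treated siControl, 519.5 CPM in untreated siCTGF and 933 CPM in kahweol-treated siCTGF cells. The treated and untreated libraries did not overlap. How many of all genes separate in this way was not counted, here or for the genes below. Its log2 fold change with kahweol was 0.92 in siControl (95% counting interval 0.89 to 0.95) and 0.84 in siCTGF cells (0.81 to 0.88). Over the 4 libraries, ATF4 was 0.88 higher on the log2 scale (SE 0.06, adjusted p = 7.13e-05, edgeR). ATF4 is controlled mainly by translation, which RNA-Seq does not measure. Its processed pseudogenes ATF4P3 and ATF4P4 had mean counts of 88 and 23.5, against 35276.5 for ATF4.

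DDIT3 (gene ID 1649, chromosome 12 from 57910371 to 57914300), which encodes CHOP, a C/EBP-family factor linked to cell death under prolonged ER stress, was at 18.4 CPM in untreated and 74.1 CPM in kahweol-treated siControl cells, and at 25.9 and 90.6 CPM in siCTGF cells. Both treated libraries stood far above both untreated ones. The log2 fold changes were 2.00 (1.87 to 2.15) in siControl and 1.80 (1.68 to 1.93) in siCTGF cells. The fit gave 1.90 (SE 0.10, adjusted p = 3.88e-05, edgeR), the highest of the 10 genes. DDIT3 overlaps the tRNA synthetase gene MARS1 by 65 bp on the opposite strand, and the strand setting of the counting is not stated.

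ATF3 (gene ID 467, chromosome 1 from 212738676 to 212794119), a bZIP factor induced by ATF4 and by many other stresses, was at 7.73 and 26.1 CPM in untreated and kahweol-treated siControl cells and at 8.70 and 30.7 CPM in siCTGF cells. The log2 fold changes of 1.75 (1.53 to 1.98) and 1.81 (1.60 to 2.04) lay within each other's counting intervals. In the fit, ATF3 was 1.79 higher (SE 0.12, adjusted p = 6.20e-05, edgeR). The promoter window searched for ATF3 holds the composite site shown above, and which start ATF3 used in these cells was not examined.

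SESN2 (gene ID 83667, chromosome 1 from 28586029 to 28609002), a leucine-binding protein that restrains mTORC1 and supports the antioxidant response, was at 14.8 and 40.7 CPM in siControl and at 13.8 and 41.6 CPM in siCTGF cells, untreated and treated. The log2 fold changes of SESN2 reached 1.46 (1.295 to 1.625) and 1.59 (1.42 to 1.78), and the fit gave 1.53 (SE 0.10, adjusted p = 6.34e-05, edgeR). Its paralogs SESN1 and SESN3 rose too, by 0.93 (SE 0.11, adjusted p = 0.00043, edgeR) and 1.31 (SE 0.10, adjusted p = 9.2e-05, edgeR) in the same fit.

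DDIT4 (gene ID 54541, chromosome 10 from 74033682 to 74035794), also known as REDD1, likewise restrains mTORC1 but moved the other way. It was at 94.9 CPM in untreated and 45.5 CPM in kahweol-treated siControl cells, and at 89.2 and 57.8 CPM in siCTGF cells. Both treated libraries were below both untreated ones. The log2 fold change was -1.06 (-1.17 to -0.96) in siControl and -0.63 (-0.72 to -0.53) in siCTGF cells, and -0.84 in the fit (SE 0.12, adjusted p = 0.0011, edgeR). Its paralog DDIT4L fell as well, by 1.15 on the log2 scale (SE 0.25, adjusted p = 0.0074, edgeR), from 5.86 to 2.29 CPM in siControl cells.

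ASNS (gene ID 440, chromosome 7 from 97480989 to 97557753), which makes asparagine and is a classical ATF4 target, was at 87.0 and 170 CPM in siControl and at 100 and 168 CPM in siCTGF cells, untreated and treated. The log2 fold changes were 0.96 (0.89 to 1.03) and 0.74 (0.67 to 0.82), and the fit gave 0.85 (SE 0.09, adjusted p = 0.000272, edgeR). ASNS lies within the read-through gene CZ1P-ASNS on the same strand, which had a mean count of 110 against 6408.5 for ASNS. The other amino acid enzyme, PSAT1 (gene ID 29968, chromosome 9 from 80912041 to 80945009), the transaminase of serine synthesis, behaved differently. PSAT1 was at 169 and 196 CPM in siControl and at 189 and 167 CPM in siCTGF cells, so the treated and untreated values overlapped on this scale. In TPM, both treated values (157 and 126) were below both untreated ones (159 and 170.2). PSAT1 thus had log2 fold changes of 0.21 in siControl (0.15 to 0.27) and of -0.17 in siCTGF cells (-0.23 to -0.11), opposite in sign. The fit gave 0.02 (SE 0.10, adjusted p = 0.89, edgeR). With log2(TPM + 1), the value in siControl cells was -0.02.

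TRIB3 (gene ID 57761, chromosome 20 from 361273 to 378203), a pseudokinase that binds ATF4 and CHOP and limits their activity, was at 76.1 and 75.2 CPM in siControl and at 109 and 104 CPM in siCTGF cells. The kahweol log2 fold changes of -0.02 (-0.11 to 0.07) and -0.07 (-0.15 to 0.01) are not distinguishable from 0 at this depth, and the fit gave -0.04 (SE 0.09, adjusted p = 0.73, edgeR). VLDLR (gene ID 7436, chromosome 9 from 2621787 to 2660056), a receptor for triglyceride-rich lipoproteins and reelin, was at 34.2 and 34.0 CPM in siControl and at 29.7 and 25.4 CPM in siCTGF cells. Kahweol gave VLDLR -0.01 (-0.14 to 0.13) in siControl and -0.23 (-0.38 to -0.07) in siCTGF cells on the log2 scale, and it did not pass the fit (-0.12, SE 0.10, adjusted p = 0.39, edgeR).

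CHAC1 (gene ID 79094, chromosome 15 from 41245669 to 41248710), which breaks down glutathione and is induced by ATF4 and CHOP, was the least abundant of the 10 by CPM, with 373, 283, 313 and 145 counts in untreated and kahweol-treated siControl and untreated and kahweol-treated siCTGF cells. This corresponded to 5.97, 6.55, 5.78 and 3.27 CPM. The kahweol-treated siCTGF library alone stood apart. The log2 fold change was 0.13 (-0.18 to 0.47) in siControl and -0.82 (-1.25 to -0.42) in siCTGF cells, and the fit gave -0.33 (SE 0.28, adjusted p = 0.36, edgeR). CHAC1 holds the composite site of its promoter as TTGCATCA on the strand shown.

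**Figure D2:**
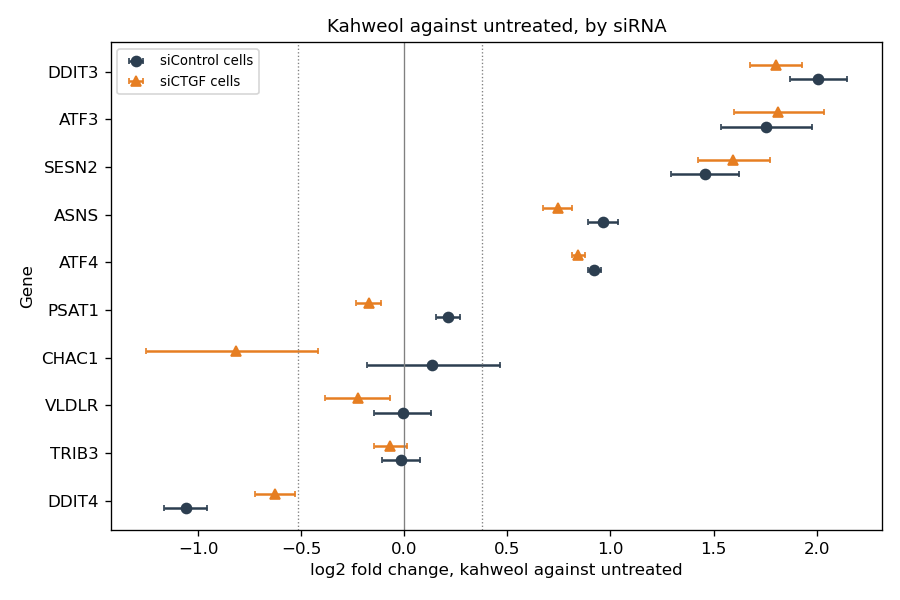
Log2 fold change of kahweol against untreated cells (x axis) for the 10 genes (y axis), with circles for siControl and triangles for siCTGF cells, 1 library per condition. Bars are 95% counting intervals, and dotted lines mark folds of 0.7 and 1.3. DDIT3, ATF3, SESN2, ASNS and ATF4 lie right of the upper line in both, and DDIT4 left of the lower line.

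The kahweol log2 fold changes in siCTGF and siControl cells were then set against each other for each gene. The difference (siCTGF minus siControl) had a 95% counting interval below 0 for 6 of the 10 genes and above 0 for 1, against 17.5% and 16.2% of all genes tested. It was -0.95 (-1.46 to -0.44) for CHAC1, -0.38 (-0.47 to -0.30) for PSAT1, -0.22 (-0.32 to -0.12) for ASNS and -0.22 (-0.42 to -0.01) for VLDLR. For DDIT3 it was -0.20 (-0.39 to -0.02) and for ATF4 -0.08 (-0.12 to -0.03). DDIT4 had a difference of 0.43 (0.29 to 0.58), a smaller fall in siCTGF cells. The intervals of TRIB3 (-0.17 to 0.07), ATF3 (-0.24 to 0.37) and SESN2 (-0.10 to 0.37) contained 0. These intervals cover counting error only and narrow with depth. The 10 genes averaged 278.5 counts or more, whereas the genes tested reach down to 10, so the shares are not matched for depth. Variation between cultures is unmeasured, and an interaction of siRNA and kahweol could not be tested.

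The siCTGF libraries were next compared with the siControl libraries. TRIB3 was higher with siCTGF at both kahweol settings, past the 1.3 threshold, but did not pass the edgeR fit. With log2(TPM + 1), its value in kahweol-treated cells was 0.36, under that threshold. In untreated cells, TRIB3 and DDIT3 were over a fold change of 1.3 and none was under 0.7, against 9.63% and 8.99% of all genes tested. In kahweol-treated cells, TRIB3 was over 1.3 and CHAC1 under 0.7, against 14.7% and 7.83% of all genes. TRIB3 was higher in siCTGF cells by 0.51 (0.43 to 0.59) without and by 0.46 (0.37 to 0.55) with kahweol, on the log2 scale. DDIT3 differed by 0.49 (0.33 to 0.65) without and 0.29 (0.19 to 0.38) with kahweol, and VLDLR by -0.20 (-0.34 to -0.07) and -0.42 (-0.58 to -0.26). CHAC1 differed by -0.05 (-0.36 to 0.27) in untreated cells, where a difference was not detectable at this depth, and by -0.996 (-1.45 to -0.60) in kahweol-treated cells. ATF4 stayed between -0.01 and 0.07, SESN2 between -0.10 and 0.03 and ASNS between -0.02 and 0.20 over both comparisons. In edgeR's quasi-likelihood fit over the 4 libraries with kahweol as a covariate, 0 of the 10 genes were called in either direction at an adjusted p under 0.05, against 0.0663% of all genes higher and 0.0602% lower. Without correction, 3 of the 10 had p under 0.05 (TRIB3, DDIT3 and VLDLR), as had 9.91% of all genes. TRIB3 had a log2 fold change of 0.49 in this fit (SE 0.09, adjusted p = 0.13, edgeR). DESeq2 and limma-voom each called TRIB3 and no other of the 10, with adjusted p of 0.0050 and 0.048. The siCTGF comparisons share libraries with the kahweol comparisons and are not independent of them.

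**Figure D3:**
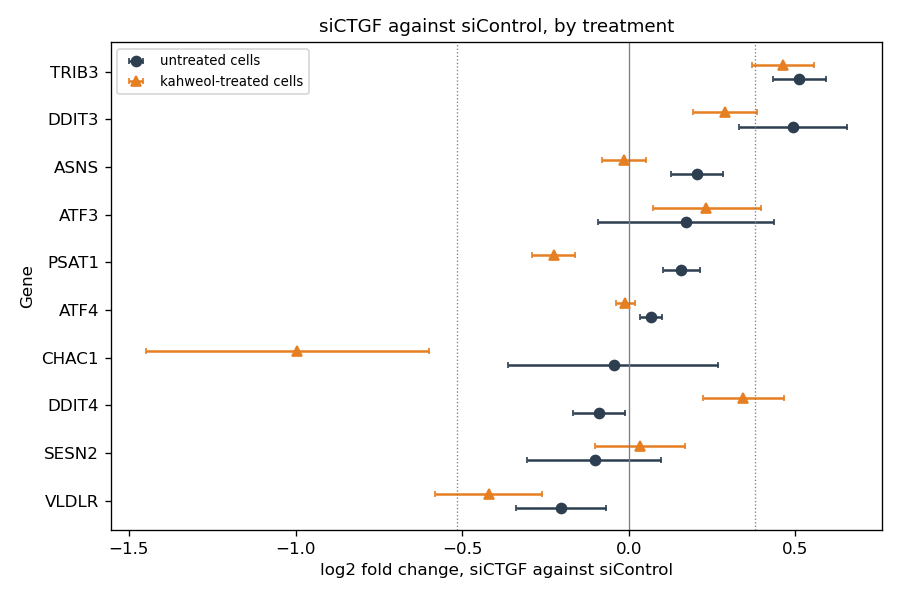
Log2 fold change of siCTGF against siControl (x axis) for the 10 genes (y axis), with circles for untreated and triangles for kahweol-treated cells, 1 library per condition. Bars are 95% counting intervals, and dotted lines mark folds of 0.7 and 1.3. TRIB3 lies at 0.51 and 0.46, and CHAC1 at -0.05 and -0.996.

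The sensors and brakes upstream of ATF4 were examined next. Of 10 genes encoding eIF2 kinases, the eIF2 alpha subunit and its phosphatase, 3 were higher and 1 lower with kahweol in the edgeR fit, where 22.9% and 23.6% of all genes tested were. PPP1R15A (GADD34), the stress-induced phosphatase subunit that restores translation, went from 83.8 to 397 CPM in siControl and from 92.1 to 589 CPM in siCTGF cells (2.46 in the fit, SE 0.11, adjusted p = 2.1e-05, edgeR). Its constitutive relative PPP1R15B rose by 0.46 (SE 0.08, adjusted p = 0.0030, edgeR). EIF2AK3 (PERK), the kinase of ER stress, went from 30.3 to 66.3 CPM and from 27.8 to 74.6 CPM (1.28, SE 0.11, adjusted p = 0.00011, edgeR). EIF2AK4 (GCN2), the sensor of amino acid shortage, fell by 0.39 on the log2 scale (SE 0.09, adjusted p = 0.012, edgeR). EIF2AK1 (HRI, the heme and mitochondrial stress sensor) and EIF2AK2 (PKR, the sensor of double-stranded RNA) had values of 0.06 and 0.05, which did not pass. Kinase activity and eIF2 phosphorylation were not measured here. Of the 5 subunits of eIF2B, the exchange factor blocked by phosphorylated eIF2, EIF2B4 alone was called, at 0.55 (adjusted p = 0.0028, edgeR).

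Of 16 bZIP factors that pair or compete with ATF4, CHOP and ATF3, 8 were higher and 2 lower, where 22.9% and 23.6% of all genes were. FOS went from 4.99 to 40.0 CPM in siControl and from 5.56 to 52.0 CPM in siCTGF cells, a fit value of 3.11 (SE 0.12, adjusted p = 1.7e-05, edgeR). FOS is a component of AP-1, whose site stands in the DDIT3 promoter above and in 9.37% of all gene promoters searched. A link between FOS and DDIT3 was not tested. CEBPA (1.65, adjusted p = 0.00034), NFE2L2 (NRF2, the antioxidant regulator, 1.28, adjusted p = 0.00010) and ATF5 (0.83, adjusted p = 0.011) also rose in the edgeR fit.

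Other ATF4 target genes were taken by function, and differences between these groups were not tested. Their counts are to be read against the 22.9% higher and 23.6% lower among all genes in the edgeR fit. Among 7 enzymes of serine, glycine and one-carbon metabolism, 2 were higher and 2 lower, and SHMT1, the cytosolic serine hydroxymethyltransferase, fell by 0.84 on the log2 scale (SE 0.11, adjusted p = 0.00061, edgeR). Among 6 other amino acid enzymes tested, 1 was higher and 3 lower. The higher one was CTH, which makes cysteine from cystathionine (1.21, SE 0.14, adjusted p = 0.00036, edgeR), and PYCR1 of proline synthesis fell by 0.68 (SE 0.09, adjusted p = 0.00084, edgeR). Of 8 amino acid transporters tested, 3 were higher and none lower. SLC3A2 went from 132 to 1003 CPM in siControl and from 145 to 1144 CPM in siCTGF cells, and its cystine-transporting partner SLC7A11 from 144 to 493 CPM and from 188 to 479 CPM. Of 13 genes of tRNA charging and export, 5 were higher and 1 lower, among them AARS1 (0.79) and WARS1 (0.65), both with adjusted p of 0.00036 or less in edgeR. Of 22 further targets of ATF4 and CHOP, 17 were higher and 1 lower, with a median of 0.84. They include the autophagy genes SQSTM1 (2.14, SE 0.06) and MAP1LC3B (1.499, SE 0.13) and the collagen receptor DDR2 (1.60, SE 0.24). The ATF4 target lists share genes with other lists, so the counts are not independent. Among the shared genes, PPP1R15A is also counted with the eIF2 genes above, and CDKN1A, GDF15 and SESN1 with the p53 targets below. SESN1 and SESN3, described above as paralogs of SESN2, are among these ATF4 targets too.

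Promoter sequences were at hand for 44 of these 61 target genes, and 17 of the 44 held TGATGNAA. Of the 16 holders that were tested, 4 were higher and 2 lower with kahweol, with a median log2 fold change of 0.11. Of the 26 tested genes without a match in the window, 17 were higher and 1 lower, with a median of 0.49. Among all genes, 22.9% were higher and 23.6% lower. Among the 10 genes, the holders ASNS and ATF3 rose and CHAC1 did not pass. The difference between genes with and without a match was not tested, and genes without one may hold a site elsewhere. A match in this window is a description and does not show binding.

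Genes of other stress programs that share targets with ATF4 were counted in the same fit, to be read against the 22.9% higher and 23.6% lower among all genes. Of 18 genes of the IRE1 and ATF6 branches of the unfolded protein response, 13 were higher and none lower, with a median of 0.58. DNAJB9, a target of XBP1, went from 9.25 to 49.8 CPM in siControl and from 9.02 to 49.7 CPM in siCTGF cells. The ER chaperone HSPA5 (BiP) went from 102 to 359 CPM and from 143 to 304 CPM. Of 16 NRF2 targets, 14 were higher and 1 lower, with a median of 1.304, led by HMOX1 (34.3 to 581 CPM and 44.3 to 1029 CPM). Of 11 heat shock genes, 7 were higher and none lower, and BAG3 rose by 1.51 (SE 0.09, adjusted p = 5.3e-05, edgeR). HSPA1A and HSPA1B (both 1.98) are near-identical copies, so their separate values are uncertain. Of 13 p53 targets, 8 were higher and 3 lower, with CDKN1A at 1.05 and BAX at -0.70. MDA-MB-231 carries mutant p53. How far each of these programs accounts for the values of ATF3, DDIT3 and SESN2, which several of them can induce, was not tested. The part of these programs in the values of the other ATF4 targets above, SQSTM1 and SLC7A11 among them, was not tested either.

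DDIT4 is also a gene of the hypoxia response, and the hypoxia list was split. Of 12 genes, 3 were higher and 6 lower, with a median of -0.53, where 22.9% of all genes were higher and 23.6% lower. PDK1, a kinase that inhibits pyruvate dehydrogenase, fell by 1.302 on the log2 scale (SE 0.12, adjusted p = 0.00015, edgeR), and BNIP3 fell by 1.06 (SE 0.09, adjusted p = 0.00013, edgeR). The peptide hormone ADM and the angiogenic factor VEGFA rose by 1.45 and 0.62. Around VLDLR, MYLIP (IDOL), a ligase that degrades the VLDLR protein, rose by 2.03 (SE 0.15, adjusted p = 7.3e-05, edgeR). LRP8, the closest relative of VLDLR, fell by 1.40 (SE 0.09, adjusted p = 6.3e-05, edgeR). Of the TRIB and CHAC relatives TRIB2 and CHAC2, none was higher and 1 was lower.

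**Figure D4:**
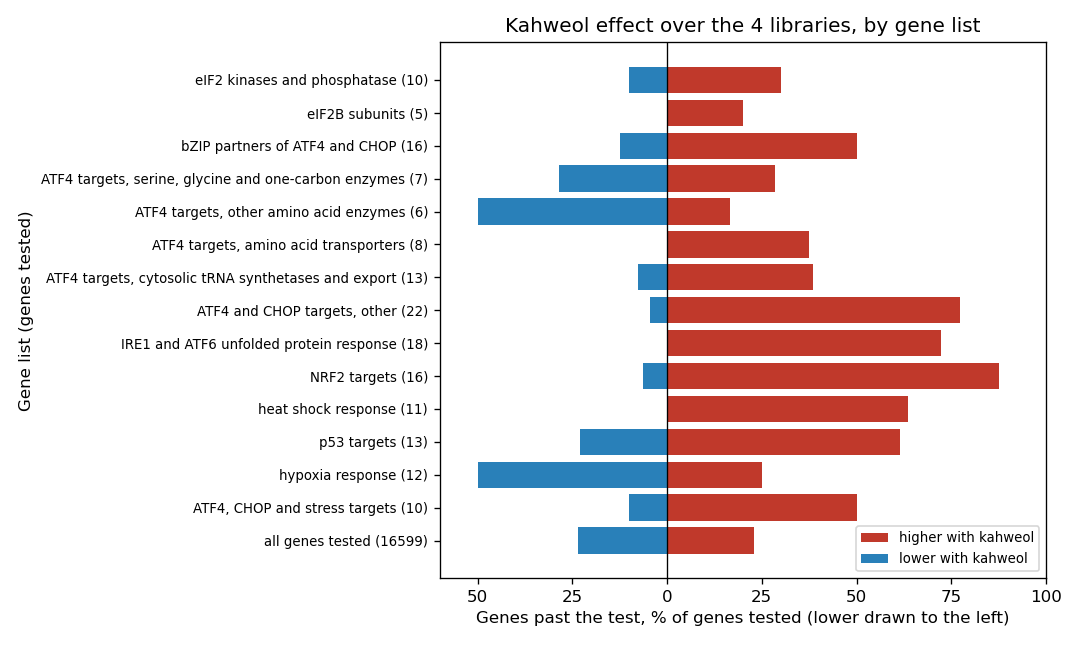
Share of the genes tested in each list (x axis, percent) that were higher (red, right) or lower (blue, left) with kahweol in the edgeR fit over 4 libraries at an adjusted p under 0.05, by gene list (y axis, number tested in parentheses). For the 10 genes 5 were higher and 1 lower, for the NRF2 targets 14 and 1 of 16, and for all genes 22.9% and 23.6%.

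The genes whose pattern over the 4 libraries was most like that of DDIT3 were ranked by the Euclidean distance between log2 CPM values centered on each gene's mean, among 11485 genes that averaged 200 counts or more. The nearest were SERPINI1 (distance 0.05), ZNF547 (0.09), FTL (0.13), CDKL3 (0.165) and ZNF615 (0.23). FTL, the ferritin light chain, had kahweol log2 fold changes of 1.88 and 1.93. Nearest to the mean pattern of the 10 genes were CWC22, ZNF586, CLASP1, PSMD14 and UBA6-AS1, at distances of 0.03 or less. With 4 points per gene, such closeness describes these libraries only.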

How the data were processed

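RNA-Seq of MDA-MB-231 cells (siControl or siCTGF, untreated or with kahweol) was analyzed from tables deposited by the authors. The submitters' processing notes name trimming with Trimmomatic 0.38, quality checks with FastQC 0.11.7, alignment to GRCh37.p13 with HISAT2 2.1.0 (Bowtie2 2.3.4.1 is also listed) and assembly with StringTie 2.1.3b. The strand setting and filters are not given in the sources used here. The estimated counts, as deposited, are whole numbers per gene without normalization. The deposited FPKM and TPM values come from StringTie and are relative to gene length and library size. The deposited coverage signal, the mean depth per base, served only to find that 104 to 106 bases were aligned per count, about the length of a single read, so that 2 counts were taken as 1 fragment.

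Counts were scaled by TMM in edgeR 4.0.16 (R 4.3.3), and log2 CPM used a prior count of 2. Testing required a count of 10 on average per library. Fold changes between single libraries carry 95% Clopper-Pearson intervals on fragments, those of differences between fold changes use the delta method, and both cover counting error only. The fits over 4 libraries used edgeR's quasi-likelihood test, 2 libraries against 2 with the other factor as covariate, and Benjamini-Hochberg correction over all genes. SE is the log2 fold change divided by the square root of the F statistic. P-values measure only the spread that the additive model leaves. Fold thresholds of 1.3 and 0.7 follow the study, which paired them with a p-value threshold. The counts between single libraries used the fold alone. The 10 genes, the 16 gene lists and the tests were chosen with earlier results of these data known, and lists were written from general knowledge. From each list, up to 4 genes per direction (50 counts or more on average, past the same threshold with kahweol in both siRNA backgrounds) were named, and of the first list all genes could be. Alternatives were RLE, upper-quartile and total-count scaling, other filters, thresholds and prior counts, log2(TPM + 1), log2(FPKM + 1), DESeq2 1.42.0, limma-voom (limma 3.58.1), no covariate and leaving out each library. Promoter sequences came from RefSeq (GRCh38.p14), matched by symbol, with no conversion of coordinates. Other computations used Python 3.11.15. Counts over the list of lipoprotein receptor genes and some of its members are not reported here.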

Additional observations from a re-analysis of the deposited data

Results flagged for a closer look

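PSAT1 went in opposite directions with kahweol in the 2 siRNA backgrounds, with log2 fold changes of 0.21 in siControl and -0.17 in siCTGF cells, each with a counting interval that leaves out 0. With log2(TPM + 1) both values were negative, at -0.02 and -0.43. The same libraries gave siCTGF log2 fold changes for PSAT1 of 0.16 without and -0.23 with kahweol. For DDIT4, siCTGF gave a log2 fold change of -0.0903 without kahweol and of 0.34 with it. The difference between backgrounds was not tested in any of these cases, since each condition holds 1 library.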

How the results depend on the processing

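Of the 10 genes, the numbers over a fold of 1.3 with kahweol (5 in siControl and 5 in siCTGF cells) became 3 and 3 at a fold of 2, and the number under 0.7 in siCTGF cells went from 2 to 0 at a fold of 0.5. For siCTGF, the thresholds of 2 and 0.5 left 0 genes in place of 2 over 1.3 in untreated cells, 0 in place of 1 over 1.3 and 0 in place of 1 under 0.7 in kahweol-treated cells, and log2(TPM + 1) also left 0 over 1.3 there (TRIB3 at 0.36). The kahweol fit called 5 of the 10 genes higher and 1 lower under each of the 7 alternatives. The siCTGF fit called 11 genes higher and 10 lower in all, against 35 and 40 with RLE factors, 34 and 50 with total counts, 23 and 27 at a mean count of at least 50, 68 and 60 with DESeq2, 32 and 28 with limma-voom and 0 and 0 without the kahweol covariate (47 genes at an unadjusted p under 0.05). Of the 10 genes it called 0 higher, against 1 each with DESeq2 and limma-voom (TRIB3). The cause was not tested. Scaling by total counts moved the median kahweol log2 fold change of all genes by -0.13 in siControl and -0.15 in siCTGF cells, and log2(TPM + 1) by -0.22 and -0.25. Of 240 log2 fold changes of the 10 genes under other scalings, units or prior counts, 56 moved by more than the distance to their counting bound, and none past a threshold changed sign. Leaving out each library in turn leaves 0 residual degrees of freedom and gives the log2 fold changes of the single pairs, as in the report. No paired analysis was possible because each condition holds 1 library and the labels give no replicate numbers, but the fits already match libraries by the other factor through the covariate. Depth limits the values of CHAC1, with 145 to 373 counts.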
